A study of Mus musculus with 10 samples.

Results

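The 10 genes described here encode proteins of the acrosome or of sperm-egg interaction: Acr, Spink2, Dkkl1, Acrbp, Acrv1, Spam1, Zpbp, Zpbp2, Izumo1 and Crisp2. They were chosen by symbol, as every probe set annotated to 1 of these genes alone, and make up 10 of the 18194 genes on the arrays. These genes and the gene lists below were chosen with earlier results of these data known. Counts and medians set beside other genes are therefore descriptions and test nothing. A probe set is a group of short DNA probes that together measure 1 transcript. The genes had 13 probe sets, 8 on the first of 2 array designs and 5 on the second, and 1 further probe set naming Acrbp together with Ing4 was left out.

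The acrosome is a secretory vesicle that forms from the Golgi apparatus and caps the sperm nucleus. It holds proteases, protease inhibitors and hyaluronidase, and its contents are released by the time sperm pass the zona pellucida, the coat of the egg. In the mouse, acrosome formation starts in round spermatids, after meiosis, while transcripts of several acrosomal proteins are already known from pachytene spermatocytes. Membrane proteins exposed by its release, Izumo1 among them, then take part in adhesion and fusion with the egg.

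RNA came from C57BL/6 male mice, in a study whose title names a screen for genes that act in chromosome segregation during meiosis I. Spermatogonia were fraction 2 of a Percoll density gradient at day 8 of age, leptotene/zygotene spermatocytes were fraction 5 at day 12, and pachytene spermatocytes were fraction 8 at day 15. The pachytene stage is the long part of meiotic prophase in which homologous chromosomes are fully paired. Whole testis was taken at day 15, as was the somatic mix, which pooled 11 tissues ( skin, muscle, spleen, kidney, liver, lung, heart, brain, stomach, intestine and colon). The fractions were enriched and not pure, and no mutant or treated animals entered. Each group had 2 samples, the first on 1 array design and the second on the other, so each probe set had 1 array per group and no p-value could be given. No label says if the 2 samples of a group were prepared separately. Since the arrays measured bulk RNA, fewer cells of a type and less RNA per cell cannot be told apart.

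A level below is a scaled signal, the deposited intensity after all arrays of a design were brought to the same trimmed mean, and it has no unit. Signals under a floor (87.4 on the first design, 47.0 on the second) were taken as not measured, and a difference against such a signal is given as a lower bound. A gene is said to rise or fall only at a difference of 4-fold or more, which is 2 on the log2 scale. Smaller differences are set against a 95% error limit taken from the 100 probe sets on both designs. That limit was 0.35 for leptotene/zygotene against spermatogonia, 0.41 for pachytene against leptotene/zygotene, 0.46 for pachytene against whole testis and 0.57 for whole testis against somatic mix, all on the log2 scale. The 100 shared probe sets were bright, with trimmed means before scaling of 1022.7 to 1452.2 on the first design and 769.9 to 1695.0 on the second. Over whole arrays these were 382.6 to 484.4 and 63.4 to 147.7. The limit need not hold near the floor, as for Izumo1 and the leptotene/zygotene values of Acrbp, Crisp2 and Zpbp2. Probe sets differ in how brightly they report, so levels are compared between groups and never between genes.

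The stage markers followed the fractions' names in part. Spermatogonial markers were higher in leptotene/zygotene cells than in spermatogonia, with 10 of 14 beyond the error limit and summed signals of 17044 and 12624. Leptotene/zygotene markers were higher there too, with 14 of 15 beyond the limit and summed signals of 17918 and 8299. Of all genes measured, 24.1% were higher beyond it. In pachytene cells the sum of leptotene/zygotene markers was 15710. Against leptotene/zygotene cells, 10 of these 15 were lower beyond the limit and 4 higher, with a median log2 difference of -0.89. Of 13 spermatogonial markers measured, 12 were lower and 1 higher, with a summed signal of 4436 in pachytene cells. Of all 13519 genes measured, 5947 were lower beyond the limit. Of 15 pachytene markers, 14 were above the floor in the pachytene fraction, against 12 in leptotene/zygotene cells, and their summed signals were 91363 and 7323. Of 15 spermatid markers, 7 were above the floor in the pachytene fraction, against 2 in leptotene/zygotene cells, with summed signals of 2223 and 1108. In the somatic mix 7 were above the floor too, with a summed signal of 1618. Odf2 alone gave 1259 of the sum in pachytene cells and 654 in leptotene/zygotene cells. Tnp1, Tnp2 and Prm2, which encode chromatin proteins of elongating spermatids, were below the floor in all 5 groups. Sertoli cell markers were above the floor in every germ cell fraction, with 13 of 14 in pachytene cells and 14 of 14 in leptotene/zygotene cells and in spermatogonia. Their summed signals were 58923 in spermatogonia, 53837 in leptotene/zygotene cells, 16475 in pachytene cells, 44270 in whole testis and 13243 in the somatic mix. In the same order, peritubular and stromal markers summed to 45669, 24761, 14098, 27942 and 27728. Leydig cell markers summed to 15456, 9493, 6391, 7874 and 3455, with Fdx1 alone at 5737 in pachytene cells. Macrophage and blood markers went the same way as the 7 genes that rose. Of 10 measured, 9 were higher in pachytene than in leptotene/zygotene cells beyond the error limit, as were 4058 of all 13519 genes. None of these markers was past 4-fold, and their median log2 difference was 0.84. Against spermatogonia 6 of the 10 markers passed 4-fold, against 10.0% of all genes, and the markers had a median of 2.19. Their summed signals were 1182 in spermatogonia, 2453 in leptotene/zygotene cells, 5158 in pachytene cells, 3860 in whole testis and 10721 in the somatic mix. The part that these other cells had in the results below was not tested.

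Promoter sequence was at hand for 9 of the 10 genes. The 4 shown here, the 250 bases before the transcription start from RefSeq's table of build GRCm38.p6, are those whose stretch lies outside every annotated gene. Of these 4 genes, Zpbp2 and Crisp2 rose in pachytene against leptotene/zygotene cells. Izumo1 lay near the floor in both, with a difference under the error limit, and Spam1 was not measured above the floor in any group. The regions are chr11:98550847-98551096 on the plus strand for Zpbp2, chr17:40794147-40794396 on the minus strand for Crisp2, chr7:45621561-45621810 on the plus strand for Izumo1 and chr6:24790938-24791187 on the plus strand for Spam1. Sequences run 5′ to 3′ and capitals mark matches on either strand to CNGTT (the core bound by MYB proteins), TGACG (the core of the cyclic AMP response element, CRE) and TATAAA (the TATA box).
Zpbp2: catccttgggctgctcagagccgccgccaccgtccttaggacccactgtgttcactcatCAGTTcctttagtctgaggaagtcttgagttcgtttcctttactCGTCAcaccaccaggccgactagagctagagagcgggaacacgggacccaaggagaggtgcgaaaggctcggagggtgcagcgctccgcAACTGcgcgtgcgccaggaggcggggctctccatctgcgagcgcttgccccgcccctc
Crisp2: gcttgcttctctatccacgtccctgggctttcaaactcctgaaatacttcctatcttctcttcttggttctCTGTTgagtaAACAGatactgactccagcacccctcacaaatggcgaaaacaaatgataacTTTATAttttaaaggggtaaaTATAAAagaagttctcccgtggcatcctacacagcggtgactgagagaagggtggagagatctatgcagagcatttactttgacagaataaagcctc
Izumo1: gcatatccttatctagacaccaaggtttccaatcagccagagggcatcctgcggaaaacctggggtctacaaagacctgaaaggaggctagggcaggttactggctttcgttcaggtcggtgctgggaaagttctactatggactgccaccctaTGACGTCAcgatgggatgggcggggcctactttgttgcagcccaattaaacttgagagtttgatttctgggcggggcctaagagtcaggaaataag
Spam1: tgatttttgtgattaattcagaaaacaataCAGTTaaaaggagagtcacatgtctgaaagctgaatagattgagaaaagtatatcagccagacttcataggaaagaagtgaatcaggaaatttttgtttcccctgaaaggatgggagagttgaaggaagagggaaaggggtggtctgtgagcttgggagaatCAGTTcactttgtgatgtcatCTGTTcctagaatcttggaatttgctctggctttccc
Zpbp2 held the MYB core and the CRE core, Crisp2 the MYB core and the TATA box, Izumo1 the CRE core in overlapping matches without the MYB core, and Spam1 the MYB core alone. Across the 9 genes with an entry, the MYB core was found in 8, and 74.2% of all 32851 promoters in the table hold it in the same window. The CRE core was found in 3 genes, against 17.8% of all promoters, and the TATA box in 1, against 12.4%. GTTGCC, the core bound by RFX proteins, was found in 2 genes, against 10.4%, and GGGCGG, the GC box, in 4, against 32.7%. A match is only a run of letters in this window.

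Most of these genes rose between leptotene/zygotene and pachytene spermatocytes. Of the 10 genes, 7 were at least 4-fold higher in pachytene cells, against 8.7% of the 13519 genes measured in this comparison. None was 4-fold lower, against 9.34% of all genes. No fall could be called, since no leptotene/zygotene level of these genes lay 4-fold above its floor. Over the 8 genes measured, the median log2 difference was 5.37, beside -0.22 over all genes measured. Of all genes 1176 rose and 1262 fell, with 1504 and 748 after median scaling and 1204 and 841 after quantile normalization, while 7 of the 10 genes rose under each of these. Of the 15 pachytene markers, 14 were measured and 14 rose, with a median of 3.82. The 7 genes that rose did so by 23.2-fold (Acr) to at least 90.7-fold (Dkkl1). Zpbp rose on the first design only, with 0.28 on the log2 scale in its probe set on the second. Acrv1 and Spam1 were below the floor in both groups, and the difference of Izumo1 was under the error limit.

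**Figure D1:**
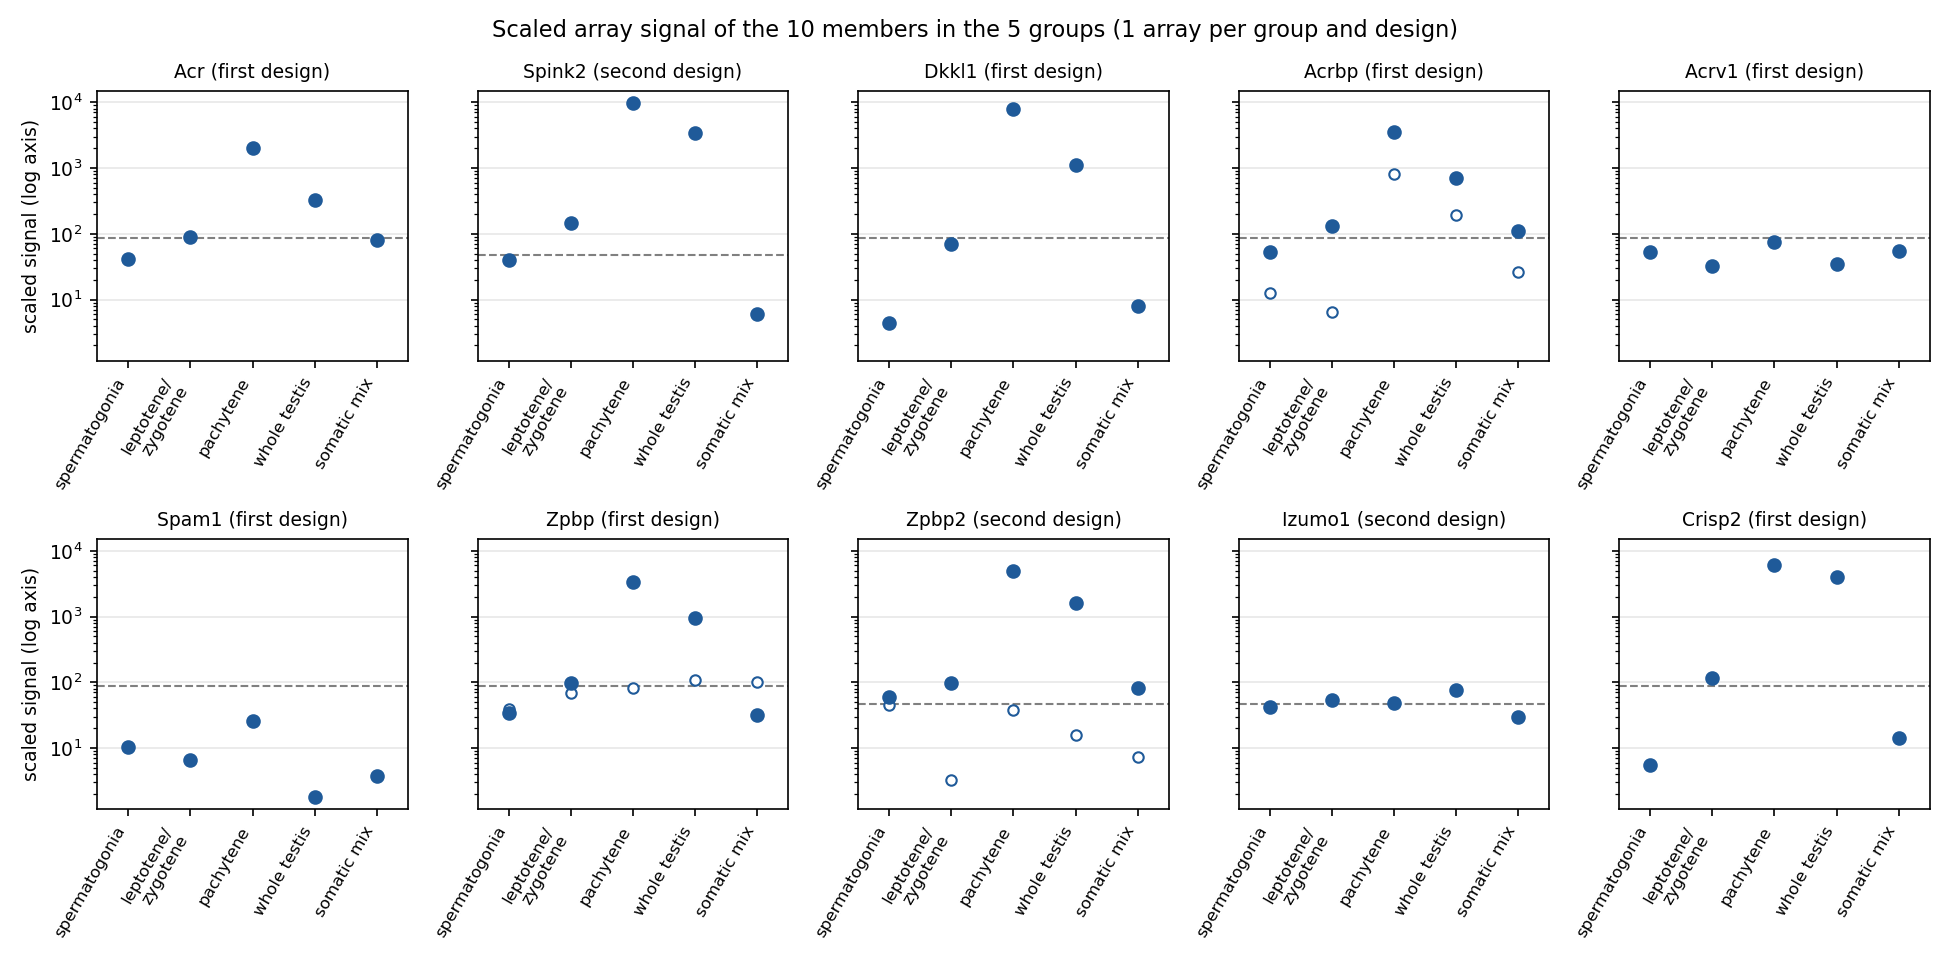
Scaled signal (log axis, no unit) of each of the 10 genes in spermatogonia, leptotene/zygotene cells, pachytene cells, whole testis and the somatic mix, with 1 array per point. Filled points are the probe set read for the gene, open points its other probe sets, and the dashed line is the floor of the design named in the panel. The open points of Zpbp lie on the second design, whose floor is 47.0. In the probe set read, Acr, Spink2, Dkkl1, Acrbp, Zpbp, Zpbp2 and Crisp2 peak in pachytene cells with whole testis next, while Acrv1 and Spam1 stay under the floor in every group.

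Acr encodes acrosin, a trypsin-like protease stored as an inactive precursor, and is on chromosome 15. Its signal was 41.7 in spermatogonia, 88.1 in leptotene/zygotene cells, 2045 in pachytene cells, 322 in whole testis and 79.7 in the somatic mix. The pachytene fraction stood far above the rest, whole testis came next, and the leptotene/zygotene value lay at the floor. Acr rose 23.2-fold in pachytene against leptotene/zygotene cells, 4.54 on the log2 scale. Spermatogonia were under the floor, so the difference of leptotene/zygotene cells from them is known only as at least 0.01 on the log2 scale.

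Acrbp encodes the proacrosin binding protein, which holds acrosin's precursor in the acrosomal matrix, and is on chromosome 6. Its brighter probe set gave 52.8 in spermatogonia, 129 in leptotene/zygotene cells, 3532 in pachytene cells, 705 in whole testis and 110 in the somatic mix. Pachytene cells were highest and whole testis next, and the gap between leptotene/zygotene cells and somatic mix, 0.23 on the log2 scale, was within the error limit. Acrbp rose 27.3-fold in pachytene against leptotene/zygotene cells. A second Acrbp probe set was at 815 in pachytene cells and at 6.38 in leptotene/zygotene cells, at least 3.22 higher on the log2 scale, so both probe sets gave a rise.

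Spink2 encodes a Kazal-type serine protease inhibitor of the acrosome and is on chromosome 5. On the second design its signal was 39.6 in spermatogonia, 145 in leptotene/zygotene cells, 9834 in pachytene cells, 3378 in whole testis and 6.13 in the somatic mix. Each step in that germ cell series was beyond the error limit. Spink2 rose 67.8-fold in pachytene against leptotene/zygotene cells. In leptotene/zygotene cells it was at least 3.09-fold higher than in spermatogonia, a bound against the floor.

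Dkkl1 encodes a glycoprotein of the acrosome related to the Dickkopf family and is on chromosome 7. Its signal was 4.34 in spermatogonia, 69.4 in leptotene/zygotene cells, 7928 in pachytene cells, 1106 in whole testis and 8.02 in the somatic mix. It was above the floor only in pachytene cells and whole testis. Dkkl1 rose at least 90.7-fold in pachytene against leptotene/zygotene cells, the widest difference of the 8 genes measured.

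Crisp2 encodes a cysteine-rich secretory protein of the acrosome and sperm tail and is on chromosome 17. Its signal was 5.61 in spermatogonia, 118 in leptotene/zygotene cells, 6062 in pachytene cells, 4001 in whole testis and 14.3 in the somatic mix. Pachytene cells were highest with whole testis next, and both lay far above the other groups. Crisp2 rose 51.6-fold in pachytene against leptotene/zygotene cells, and leptotene/zygotene cells were at least 0.43 above spermatogonia on the log2 scale, beyond the error limit.

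Zpbp and Zpbp2 encode zona pellucida binding proteins of the acrosomal matrix, and both genes are on chromosome 11. The Zpbp probe set of the first design gave 34.2 in spermatogonia, 98.5 in leptotene/zygotene cells, 3366 in pachytene cells, 950 in whole testis and 31.7 in the somatic mix. The pachytene fraction was highest, whole testis next, and the other groups lay near or under the floor. Zpbp rose 34.2-fold in pachytene against leptotene/zygotene cells on that design. Its probe set on the second design gave 39.0 in spermatogonia, 68.6 in leptotene/zygotene cells, 83.1 in pachytene cells, 109 in whole testis and 101 in the somatic mix. Whole testis and the somatic mix were highest there. The pachytene minus leptotene/zygotene difference was 0.28 on the log2 scale, under the error limit, while pachytene cells were at least 0.82 above spermatogonia, so the 2 probe sets of Zpbp disagreed in size and in order.

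Zpbp2, on the second design, was at 59.1 in spermatogonia, 97.9 in leptotene/zygotene cells, 4891 in pachytene cells, 1583 in whole testis and 81.1 in the somatic mix. All 5 values were above the floor, with pachytene cells and whole testis far above the others. Zpbp2 rose 50.0-fold in pachytene against leptotene/zygotene cells, and leptotene/zygotene cells were 0.73 higher than spermatogonia on the log2 scale, beyond the error limit. A second Zpbp2 probe set, at 3.31 to 44.9, was below the floor in every group.

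Izumo1 encodes the sperm membrane protein that binds Juno on the egg, and is on chromosome 7. On the second design its signal was 42.5 in spermatogonia, 54.1 in leptotene/zygotene cells, 48.6 in pachytene cells, 77.4 in whole testis and 29.8 in the somatic mix. Spermatogonia and the somatic mix were under the floor, pachytene and leptotene/zygotene cells lay just above it, and whole testis was highest. The pachytene minus leptotene/zygotene difference was -0.16 on the log2 scale, and its sign turned under other scalings, with 0.21 after quantile normalization, 0.25 after median scaling, 0.37 in the values as deposited and 0.04 after scaling to the shared probe sets.

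Acrv1 encodes the acrosomal vesicle protein SP-10 and is on chromosome 9. Its signal was 52.8 in spermatogonia, 32.01 in leptotene/zygotene cells, 74.6 in pachytene cells, 34.7 in whole testis and 55.0 in the somatic mix, below the floor in each. Spam1, on chromosome 6, encodes the sperm hyaluronidase PH-20. Its signal was 10.5 in spermatogonia, 6.62 in leptotene/zygotene cells, 26.0 in pachytene cells, 1.80 in whole testis and 3.78 in the somatic mix, again all below the floor. No direction was read for either gene, since signals under the floor have no order.

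Before the pachytene stage, most of the genes could be read only as bounds. In leptotene/zygotene cells against spermatogonia, 0 of the 10 genes were called at 4-fold in either direction, against 0.31% of the 12918 genes measured that rose and 0.279% that fell. That count says nothing particular of these genes, since 6 of the 7 values measured were lower bounds against spermatogonia under the floor and could hide wider differences. A fall could not be called either, since no spermatogonia level of these genes lay 4-fold above its floor. Spink2, Zpbp2, Acrbp and Crisp2 were higher in leptotene/zygotene cells beyond the error limit, as were 24.1% of all genes. Zpbp2 alone was above the floor in both groups, and Acrbp was at least 0.57 higher on the log2 scale. The bounds of Acr (0.01), Zpbp (0.17) and Izumo1 (0.20) were under the limit and leave the size of the difference unknown. The median over the 7 genes measured was 0.43, beside 0.02 over all genes. The 6 bounds among the 7 values could only lie above 0, while over all genes 1514 of 12918 values were bounds. This contrast of medians therefore says nothing particular of these genes.

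Across both steps, pachytene cells against spermatogonia, the same 7 genes rose, against 10.0% of the 13702 genes measured. None fell, against 12.1%, but no fall could be called, since no spermatogonia level of these genes lay 4-fold above its floor. The differences were at least 209-fold for Spink2, at least 90.7-fold for Dkkl1, 82.7-fold for Zpbp2 and at least 69.4-fold for Crisp2. Acrbp was at least 40.4-fold, Zpbp at least 38.5-fold and Acr at least 23.4-fold higher. The Zpbp probe set of the second design was at least 0.82 higher on the log2 scale, short of 4-fold. Because spermatogonia were under the floor for all of these genes but Zpbp2, most of the values are bounds.

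**Figure D2:**
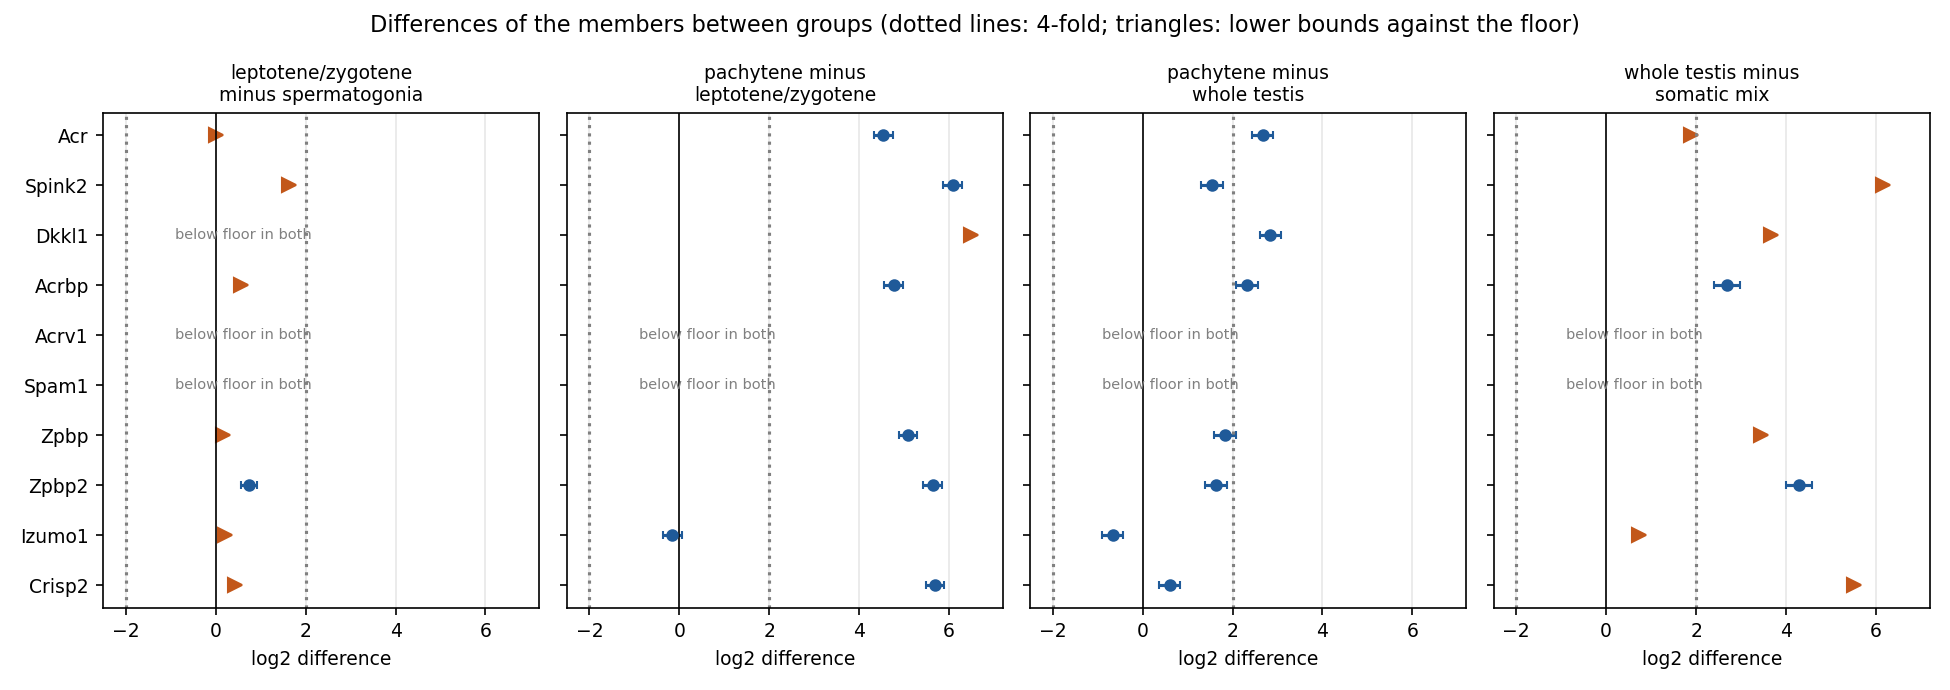
Log2 differences of the 10 genes in 4 comparisons, with circles for differences measured in both groups and triangles for lower bounds against the floor. Bars on the circles are 1 SD of the error from the 100 shared probe sets, and dotted lines mark 4-fold. The 7 genes from 4.54 to 6.5 in pachytene minus leptotene/zygotene stand apart from Izumo1 at -0.16, whose sign turns under other scalings.

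In whole testis, where pachytene cells are 1 of many cell types, the genes separated. Against whole testis, 3 of the 10 genes passed 4-fold in pachytene cells, against 2.35% of the 13842 genes measured, and none was 4-fold lower, against 4.39%. They were Dkkl1 at 7.17-fold, Acr at 6.36-fold and Acrbp at 5.01-fold. Zpbp (3.54-fold), Zpbp2 (3.09-fold), Spink2 (2.91-fold) and Crisp2 (1.51-fold) were higher in pachytene cells beyond the error limit, as were 25.7% of all genes. The Zpbp probe set of the second design went the other way, with a difference of -0.40 on the log2 scale. The median over the 8 genes measured was 1.73, beside -0.18 over all genes.

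Crisp2 and Dkkl1, both read on the first design, marked the ends of that range among the genes that peaked in pachytene cells. Crisp2 was at 6062 in pachytene cells and 4001 in whole testis, a log2 difference of 0.60, and Dkkl1 at 7928 and 1106, a log2 difference of 2.84. The 14 pachytene markers measured spread over a like range, from 0.51 to 3.36, with a median of 1.23. Izumo1 had a difference of -0.67 on the log2 scale, lower in pachytene cells beyond the error limit, as were 38.2% of all genes. It was -0.80 after scaling to the shared probe sets. Within the limit were -0.26 after quantile normalization, -0.20 after median scaling, -0.23 with the floor at the 60th percentile and -0.38 on log2 of signal plus floor. In the values as deposited Izumo1 was 0.21 higher in pachytene cells. The count of 3 depended on scaling, with 6 genes past 4-fold after median scaling and 5 in the values as deposited. Median scaling also moved the median of all genes above the floor in both groups by 0.33 on the log2 scale. Over all genes 325 rose and 607 fell, with 693 and 357 after median scaling and 684 and 827 in the values as deposited.

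**Figure D3:**
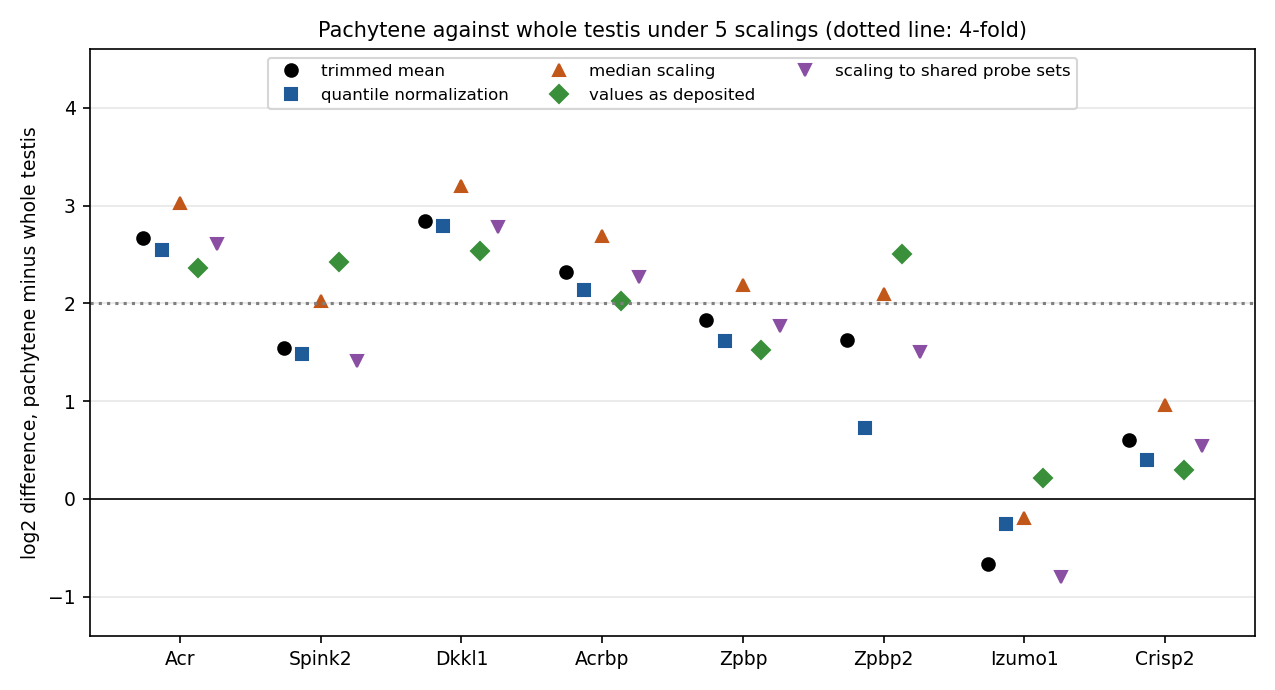
Log2 difference between pachytene cells and whole testis for the 8 genes measured, under 5 ways of scaling the arrays, with the dotted line at 4-fold. Acr, Dkkl1 and Acrbp stay above the line under all 5, Spink2, Zpbp and Zpbp2 cross it under some, and Izumo1 is below 0 except in the values as deposited, at 0.21.

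Outside the testis the genes were near or under the floor. In the somatic mix, Acrbp (110) and Zpbp2 (81.1) were above it in the probe set read, and the Zpbp probe set of the second design (101) was also. In whole testis against somatic mix, 6 of the 10 genes rose, against 7.22% of the 14988 genes measured. None fell, against 5.7%, but no fall could be called, since no somatic mix level of these genes lay 4-fold above its floor. Spink2 was at least 71.8-fold higher in whole testis, Crisp2 at least 45.8-fold, Zpbp2 19.5-fold, Dkkl1 at least 12.7-fold, Zpbp at least 10.9-fold and Acrbp 6.39-fold. Acr was at least 3.68-fold and Izumo1 at least 0.72 on the log2 scale higher, both beyond the error limit, as were 29.0% of all genes, and both bounds, which do not show whether 4-fold was passed. The rise of Acrbp rested on its brighter probe set, since the other was at 194 in whole testis and 26.2 in the somatic mix, a bound of 1.15 on the log2 scale. That of Zpbp rested on the first design. Its probe set on the second was at 109 in whole testis and 101 in the somatic mix, a difference of 0.11 on the log2 scale. In pachytene cells against somatic mix, 7 of the 10 genes rose, against 11.6% of the 15032 genes measured. None fell, against 12.2%, and again no fall could be called in this comparison. Zpbp was at least 38.5-fold higher there on the first design and 0.28 lower on the log2 scale on the second.

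Other genes of the acrosome and of sperm-egg interaction were taken from 4 lists, and their counts are to be read against the 8.7% of all genes that rose and the 9.34% that fell in pachytene against leptotene/zygotene cells. Of 19 other genes of the acrosomal matrix and membrane, 17 were on the arrays, 9 were measured and 4 rose in pachytene against leptotene/zygotene cells, with none falling and a median of 0.88. Prss21, a membrane-anchored serine protease (testisin), was at 2720 in pachytene cells and 30.4 in leptotene/zygotene cells, at least 31.1-fold higher. Spesp1, a protein of the sperm's equatorial segment, was at 799 and 38.0, Spaca9, a sperm acrosome associated protein, at 746 and 94.96, and Pcsk4, a proprotein convertase of sperm, at 692 and 96.5. The lowest differences of the list were Cd46, a complement regulator, at 0.17 as a bound and Spaca1, an acrosomal membrane protein, at 0.31. In 7 of the 17 genes every group was below the floor.

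Of 29 genes of sperm-egg adhesion and fusion, 27 were on the arrays, 17 were measured, 5 rose and none fell, with a median of 0.60. Adam2 and Adam3, membrane proteins with a disintegrin and a metalloprotease domain, were 4.86 and at least 4.76 higher on the log2 scale in pachytene cells. Lypd4, a Ly6/PLAUR domain protein, was 4.84 higher, and Clgn, the chaperone calmegin of the endoplasmic reticulum, 22.6-fold higher. Clgn and Adam2 also stand in the list of pachytene markers. B4galt1, a galactosyltransferase, was 1.63 lower and Mfge8, a secreted milk fat globule protein, 1.58 lower, short of 4-fold, and both were expressed in the somatic mix at 1292 and 1837. In 8 of the 27 genes every group was below the floor.

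Of 22 acrosome biogenesis genes, all on the arrays, 19 were measured, 4 rose and none fell, with a median of 0.80. Dpy19l2, an inner nuclear membrane protein that anchors the acrosome, was at least 5.12 higher on the log2 scale in pachytene cells. Actl7b and Actl9, actin-like proteins of the sperm head, were 5.02 and at least 4.57 higher, and Spata16, a Golgi protein of spermatids, at least 4.94 higher. Vps54, a subunit of the tethering complex for retrograde transport to the Golgi, was 1.41 lower, and Smap2, a GTPase-activating protein for Arf, 0.82 lower. Of 13 genes of acrosomal exocytosis, 12 were on the arrays, 11 were measured and 1 rose, a share near that of all genes. It was Plcd4, a phospholipase C, at least 4.85 higher on the log2 scale, while Nsf, the ATPase that disassembles SNARE complexes, was 1.89 lower and the channel gene Trpc2 0.79 lower. That count moved with the setting, with 2 genes after quantile normalization or median scaling and 0 with the mean over probe sets.

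**Figure D4:**
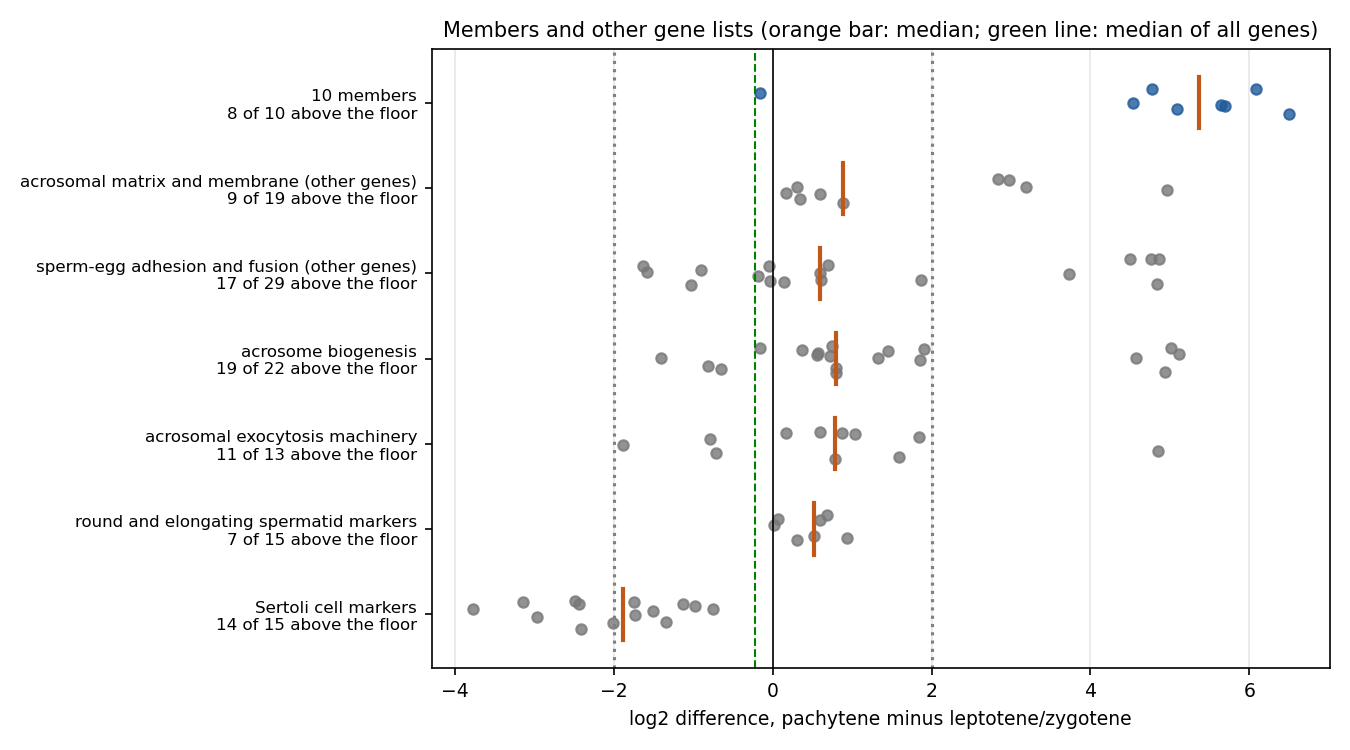
Log2 difference between pachytene and leptotene/zygotene cells of each measured gene (points) in 7 gene lists, with genes at the floor in 1 group at their bound. Orange bars are list medians, the green dashed line is the median of all genes at -0.22, and dotted lines mark 4-fold. The median of the 10 genes is 5.37 over 8 measured, above the 4 lists of other acrosome and sperm-egg genes at 0.60 to 0.88, the spermatid markers at 0.52 and the Sertoli markers at -1.88. Genes and lists were chosen with earlier results of these data known, so the contrast is only a description. The pachytene markers (3.82) and the macrophage and blood markers (0.84) are not drawn.

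The profiles of the genes over the 5 groups were set against those of all other genes on the same design, as the root mean square distance between log2 profiles, each centred on its mean and floored. This likeness is a description over 5 groups. On the first design, every gene outside those described here that is named as nearest was under the floor in spermatogonia, leptotene/zygotene cells and the somatic mix. The genes described here were under or near it in these groups. Likeness there was set largely by the floor, so the distances rest mainly on pachytene cells and whole testis. Among 7199 genes of the first design, the nearest to Acr was Pdzd9 at 0.10, to Dkkl1 Mesp1 at 0.11, to Acrbp Slc25a2 at 0.18, to Zpbp Ppp1r14bl at 0.09 and to Crisp2 Gk2, a glycerol kinase, at 0.24. Among 2956 genes of the second design, the nearest to Spink2 was Ldhal6b, a lactate dehydrogenase, at 0.24 and to Zpbp2 Med9os at 0.16. The nearest of the other genes described here lay at 0.39 for Acr (Acrbp), 0.51 for Dkkl1 (Zpbp), 0.29 for Acrbp (Zpbp) and 0.78 for Crisp2 (Dkkl1). These distances are larger, but they were sought among far fewer genes than 7199 or 2956. A smallest distance over many genes tends to be lower, so the larger distances alone say nothing of likeness among the genes described here. For Acr, 35 other genes were closer than Acrbp, and for Zpbp2, 130 were closer than Spink2. Acrv1, Spam1 and Izumo1 were not at least 4-fold above the floor in any group and have no profile here. The mean profile of the 5 genes left on the first design (Acr, Dkkl1, Acrbp, Zpbp and Crisp2) was nearest to 1700029F12Rik (0.08), Ppp1r14bl and 1700018F24Rik (0.13 each), and Pbp2 and Pabpc2 (0.15 each). That of Spink2 and Zpbp2 on the second was nearest to Septin12 (0.19), Marchf11 and Gm128 (0.23 each), Qrich2 (0.24) and Morc2b (0.27).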

How the data were processed

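RNA of 10 samples in 5 groups was measured on 2 array designs, 5 arrays each. The authors deposited 1 linear intensity for each probe set. The software was GCOS 1, per the submitters' processing notes, and its scaling and background settings are not stated there. Trimmed means of the deposited intensities were 382.6 to 484.4 on the first design and 63.4 to 147.7 on the second, and the number of arrays limits the precision.

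Each array was scaled to the mean of the 5 trimmed means (2% at each end) of its design. As floor served the 90th percentile of the first design's 70 probe sets for chemosensory receptors, and the median of all signals on the second, which held 14 such sets, under the minimum of 20. Of 22690 and 22575 probe sets, 20393 and 14674 named 1 gene and were used. Each gene had 1 probe set read, the brightest by mean log2 signal, on the first design if the gene passed the floor there or had no probe set on the second, and otherwise on the second. As error of a difference served the gap between the designs over their 100 common probe sets (root mean square over the square root of 2), and 1.96 times it is the limit. Named from the 4 acrosome and sperm-egg lists were the 4 highest genes past 4-fold and the 2 lowest in pachytene against leptotene/zygotene. Profile likeness was limited to genes at least 4-fold above the floor in some group. Members and lists were chosen with earlier results of these data known. There were 11 alternatives, covering scaling, floor, log scale, choice of probe set and array design. The code was tested on simulated data and run with Python 3.11.15, numpy 2.4.6, pandas 2.3.3 and matplotlib 3.10.9.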

Additional observations from a re-analysis of the deposited data

How the results depend on the processing

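In pachytene against leptotene/zygotene, 7 genes passed 4-fold under the 9 alternatives that kept both designs. Each design alone holds fewer of the genes: leaving out the samples numbered 1 or 2 gave 2 to 5 genes past 4-fold against leptotene/zygotene cells, spermatogonia and somatic mix, 0 to 3 against whole testis. In whole testis against somatic mix it gave 2 to 4. Medians over the genes then ran from 2.96 to 5.09 against leptotene/zygotene cells, 3.60 to 5.34 against spermatogonia, 0.57 to 2.32 against whole testis and 2.98 to 5.27 against somatic mix. They ran from 2.50 to 3.44 for whole testis against somatic mix and from 0.30 to 0.64 in leptotene/zygotene cells against spermatogonia. Zpbp, read from the second design alone, had log2 differences of 0.28 in pachytene against leptotene/zygotene cells, 0.82 against spermatogonia, -0.40 against whole testis and -0.28 against somatic mix, and of 0.11 for whole testis over somatic mix. The cause was not tested. No paired analysis was possible because the samples numbered 1 and 2 lie on designs with different probe sets, no gene described here has the same probe set on both, and the results come from no test.

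Pachytene medians against leptotene/zygotene cells were 4.82 after quantile normalization, 5.05 as deposited, 4.75 with the floor at the 60th percentile, 4.56 on log2 of signal plus floor and 4.82 with the mean over probe sets. Against spermatogonia they were 5.14 after quantile normalization, 4.75 with that floor, 5.18 on signal plus floor and 4.91 with the mean over probe sets, and against somatic mix 5.06, 4.75, 5.06 and 4.91 under the same settings. Against whole testis the median was 1.48 after quantile normalization, 2.10 after median scaling (6 genes past 4-fold) and 2.19 as deposited (5 genes). Leptotene/zygotene against spermatogonia gave 0.69 as deposited, 0.86 with the 60th percentile floor and 0.61 on signal plus floor. Whole testis against somatic mix gave 2.19 with that floor and 2.79 with the mean over probe sets. Past 4-fold in pachytene against whole testis were Spink2 (2.02 after median scaling, 2.42 as deposited), Zpbp2 (2.10 and 2.51) and Zpbp (2.19 after median scaling). In whole testis against somatic mix, Acr passed it as deposited (2.10), and Acrbp fell short with the 60th percentile floor (1.65), the mean over probe sets (1.91) and plain probe sets only (1.15). Of 465 values of single genes, 13 changed side of 4-fold and 7 changed sign (Zpbp 2, Izumo1 5).

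Of the other lists, acrosomal exocytosis had 2 genes past 4-fold higher in pachytene against leptotene/zygotene cells after quantile normalization or median scaling, 0 with the mean over probe sets, and 1 lower as deposited. Acrosome biogenesis had 6 after median scaling, and the matrix and membrane list 2 with the 60th percentile floor. On 1 design alone the 4 lists ran from 1 to 3 (matrix and membrane), 3 to 4 (adhesion and fusion), 1 to 3 (biogenesis) and 0 to 1 (exocytosis, with a median of -0.46 on the second design).

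Over the alternatives, 621 to 1504 of all genes were 4-fold higher and 505 to 1578 lower in pachytene against leptotene/zygotene cells (1176 and 1262 in the reported setting), 704 to 1741 and 698 to 1726 against spermatogonia (1375 and 1655), 164 to 693 and 192 to 827 against whole testis (325 and 607), and 807 to 2518 and 654 to 2013 against somatic mix (1744 and 1829). For whole testis over somatic mix they were 508 to 1288 and 262 to 965 (1082 and 855), and in leptotene/zygotene cells against spermatogonia 17 to 51 and 15 to 48 (40 and 36). Median scaling gave 1741 higher and 1093 lower against spermatogonia and 2518 and 1179 against somatic mix. Signals near the floor limit Acrv1, Spam1 and Izumo1.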
